A study of Mus musculus with 8 samples.

Results

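The Hox genes are the homeobox genes of the HoxA, HoxB, HoxC and HoxD clusters. All gene symbols made of Hox, a cluster letter and a paralogue number were taken from the deposited expression table, and where a symbol had several transcripts the one with most counts on average stood for it. This gave 39 genes of 20701 symbols in the table: 11 in HoxA, 10 in HoxB, 9 in HoxC and 9 in HoxD. Polyadenylated RNA was sequenced from dissected tissue, the outflow tract (OFT) with the right ventricle (RV), of single C57BL/6 mouse embryos at stage E10.5. The 8 libraries comprised 4 of control embryos labelled wild type (CTRL) and 4 of Isl1 hypomorphic embryos (Isl1_hypo). These carry hypomorphic Isl1 alleles, which leave reduced rather than absent Isl1 expression, and which no Cre restricts to the heart. The dissected piece is a mixture of cells, so fewer cells of a type and less RNA per cell cannot be told apart.

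Hox proteins are homeodomain transcription factors that give cells their position along the body axis. Within a cluster the genes lie in the order of their paralogue numbers, and genes at the 3′ end (low numbers) are expressed earlier and further to the front than genes at the 5′ end. In the developing heart the anterior genes Hoxb1 and Hoxa3 are known from progenitors of the second heart field, the source of the OFT, where retinoic acid controls them, and genes of paralogue group 3 also act in the neural crest of the pharyngeal arches.

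The targeted gene was examined first. Isl1, which encodes a LIM-homeodomain transcription factor of the second heart field, lies on the minus strand of chromosome 13 (mm9, chr13:117088478-117099896). Its level in TMM-scaled CPM, the counts of a gene relative to those of its library, was 29.6, 61.5, 46.2 and 51.3 for CTRL embryos 1 to 4. Isl1_hypo embryos 1 to 4 had 12.7, 6.86, 7.71 and 11.4 CPM. All Isl1_hypo embryos were below all CTRL embryos. The log2 fold change was −2.29 (SE 0.256, adjusted p = 0.0077 by edgeR's quasi-likelihood test). Libraries held 29748458 to 46678973 counts in CTRL and 18422245 to 33050298 in Isl1_hypo. The cardiomyocyte markers Tnnt2, Actn2, Myh6, Myh7, Nkx2-5 and Myl7 were present in every library, at a summed 14198 to 16666 CPM in CTRL and 12502 to 14458 in Isl1_hypo. Isl1_hypo replicate 1, the shallowest library, stood apart from all others in the Hox genes, and results that rest on it are given with and without it.

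In the CTRL embryos the Hox RNA of the OFT and RV came almost entirely from the 3′ ends of the clusters. Of the 39 genes, 5 had at least 10 counts in all 4 CTRL libraries, among them Hoxa2, Hoxa3, Hoxb2 and Hoxb3. All belong to paralogue groups 1 to 3, which have 8 members, and none to groups 4 to 8 (15 members) or 9 to 13 (16 members). Groups 1 to 3 made up 86.4% to 96.2% of the Hox CPM in the 4 CTRL libraries. HoxC, which has no gene in groups 1 to 3, held 0 to 7 counts per CTRL library, and its summed level was at most 0.224 CPM there.

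**Figure D1:**
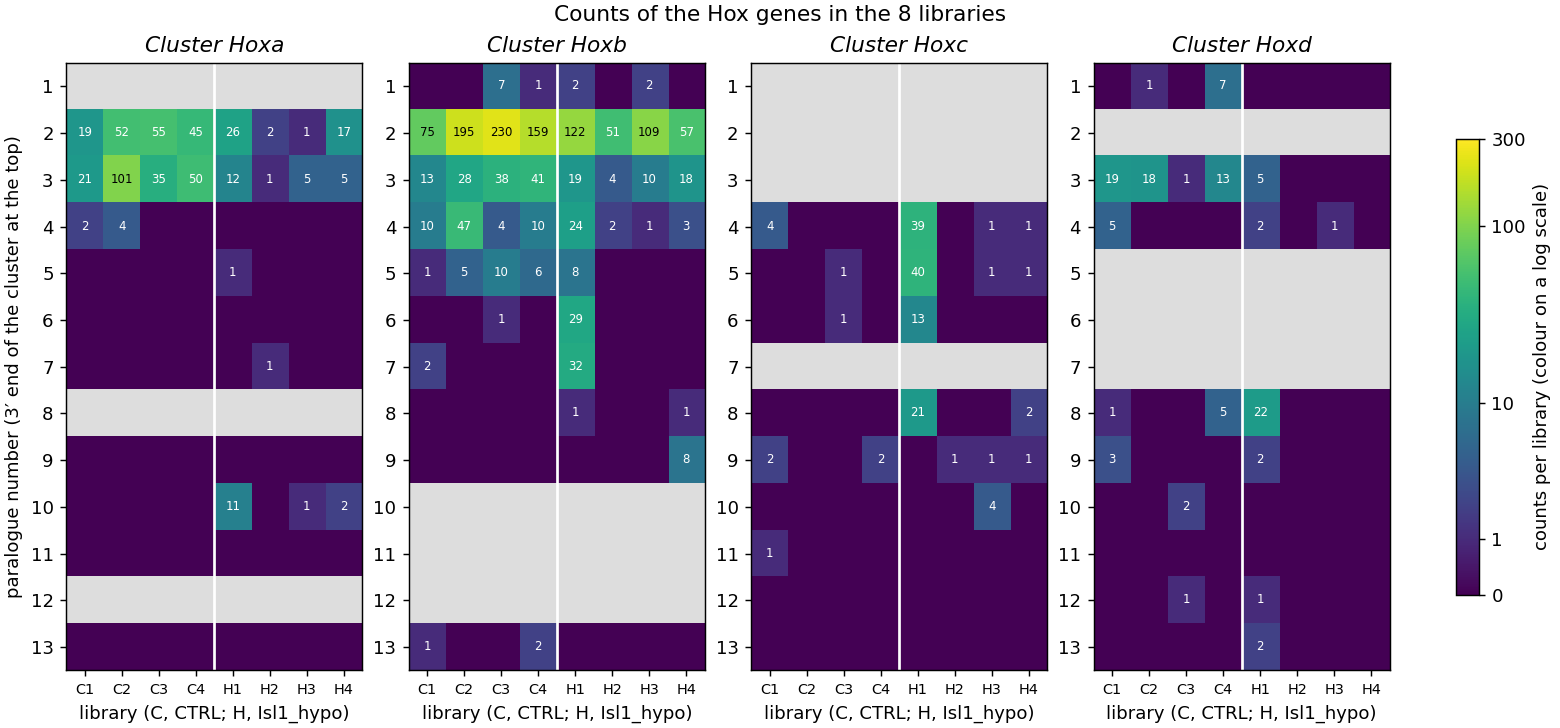
Counts of the Hox genes in each library, with one panel per cluster, paralogue number on the vertical axis and libraries on the horizontal axis (C1 to C4, CTRL; H1 to H4, Isl1_hypo). Colour is on a log scale, cells without a number hold 0 counts, and grey rows are positions with no gene or not shown. The CTRL counts lie mainly at paralogue numbers 1 to 5, while H1 holds counts of up to 40 at numbers 4 to 8 of HoxB and HoxC.

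The members at the 5′ ends were close to undetected. Of the 16 genes of groups 9 to 13, 15 had fewer than 10 counts in every library, and 6 of them had 0 counts in all 8 libraries (Hoxa9, Hoxa11, Hoxa13, Hoxc12, Hoxc13 and Hoxd11). The only other member at 0 in all 8 was Hoxa6. In the shallowest library a count of 0 allows a level of up to 0.163 CPM (3 counts), and in the deepest up to 0.0641 CPM. These limits cover counting error only. Hoxb9 had 8 counts in Isl1_hypo replicate 4 and 0 in the other 7 libraries, and Hoxc10 had 4 counts in Isl1_hypo replicate 3 and 0 elsewhere. Across the whole list, 23 of 39 genes never reached 10 counts and 16 did so in at least 1 library.

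Promoter sequence was looked up in RefSeq (build GRCm38.p6, which is not the mm9 build of the counts) as 300 bases, 250 before and 50 after the start. The table held 24 promoters of 22 Hox genes. The sequences of Hoxa2 and Hoxa3, the genes with at least 10 counts in all 4 CTRL libraries that are in it, are shown beside Hoxa11, which had 0 counts in all 8 libraries. They run 5′ to 3′ along the minus strand, with CpG dinucleotides in capitals. The windows are chr6:52164782-52165081 for Hoxa2, chr6:52213018-52213317 for Hoxa3 and chr6:52245761-52246060 for Hoxa11.
Hoxa2: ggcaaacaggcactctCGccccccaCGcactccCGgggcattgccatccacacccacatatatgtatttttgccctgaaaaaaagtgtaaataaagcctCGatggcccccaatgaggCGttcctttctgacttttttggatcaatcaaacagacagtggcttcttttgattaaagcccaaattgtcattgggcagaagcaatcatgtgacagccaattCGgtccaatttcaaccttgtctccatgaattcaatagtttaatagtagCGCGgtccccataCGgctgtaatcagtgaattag
Hoxa3: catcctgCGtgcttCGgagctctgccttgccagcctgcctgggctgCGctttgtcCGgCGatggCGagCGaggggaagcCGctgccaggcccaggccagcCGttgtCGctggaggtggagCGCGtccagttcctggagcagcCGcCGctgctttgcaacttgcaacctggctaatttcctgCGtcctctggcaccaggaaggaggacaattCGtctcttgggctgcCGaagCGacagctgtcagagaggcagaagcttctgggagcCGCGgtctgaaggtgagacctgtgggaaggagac
Hoxa11: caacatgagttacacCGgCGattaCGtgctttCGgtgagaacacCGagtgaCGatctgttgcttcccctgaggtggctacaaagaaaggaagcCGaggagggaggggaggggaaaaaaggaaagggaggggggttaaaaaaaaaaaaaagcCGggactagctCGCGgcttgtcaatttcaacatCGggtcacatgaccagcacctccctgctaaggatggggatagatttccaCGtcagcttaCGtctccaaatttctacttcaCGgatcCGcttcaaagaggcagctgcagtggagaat

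Hoxa2 held 9 CpG dinucleotides, Hoxa3 held 20 and Hoxa11 held 15. The 24 Hox promoters held 4 to 45 with a median of 14.5, against a median of 7 over the 32851 promoters of the table. The 6 promoters of the members at 0 counts in all 8 libraries had a median of 20, and ranged from 4 to 45. The detected and the undetected members therefore overlapped in CpG number. The letters TGATNNAT, a form in which Pbx and Hox proteins can bind together, were searched on both strands and found in 4 of the 24 Hox promoters (16.7%), including Hoxa2, and in 8.85% of all promoters.

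Hoxb2 was the highest member. Hoxb2, which patterns the hindbrain and cranial neural crest (plus strand of chromosome 11, mm9 chr11:96212946-96217003), had CPM values of 2.40, 4.80, 5.71 and 3.40 across CTRL embryos 1 to 4. Across the Isl1_hypo embryos they were 6.62, 1.91, 3.45 and 1.97. Replicate 1 held the highest value of all 8 libraries, replicates 2 and 4 the lowest, and the groups overlapped. Per transcript length, its level was 1.53 ± 0.536 RPKM in CTRL and 1.30 in Isl1_hypo (n = 4), and its mean over the 8 libraries was above 51.5% of all symbols. The log2 fold change of Hoxb2 was −0.24 (SE 0.439, edgeR adjusted p = 0.864).

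On the RPKM scale the mean of Hoxb2 over the 8 libraries was 1.41, above Hoxa2 (0.272), Hoxa3 (0.184) and Hoxb3 (0.113).

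Hoxa3, a paralogue group 3 gene of the pharyngeal arches (minus strand of chromosome 6, mm9 chr6:52113358-52163338), had the largest fold change of the 5 genes that passed the filter on low counts. It had 21, 101, 35 and 50 counts across the CTRL embryos, or 0.672, 2.48, 0.869 and 1.07 CPM. In Isl1_hypo it had 12, 1, 5 and 5 counts, or 0.651, 0.0375, 0.158 and 0.173 CPM. The groups did not overlap, but Isl1_hypo replicate 1 was just under CTRL replicate 1. The mean was 1.27 ± 0.823 CPM in CTRL and 0.255 ± 0.271 in Isl1_hypo (SD, n = 4). The log2 fold change of Hoxa3 was −2.38 (SE 0.804). Its unadjusted p was 0.0125 and its adjusted p 0.296 by edgeR, so it did not pass the threshold of 0.05. The annotated span of Hoxa3 overlaps those of Hoxa2, Hoxa4, Hoxa5 and Hoxa6 on the same strand, so shared reads are possible, although Hoxa4, Hoxa5 and Hoxa6 held 0 to 4 counts in each library.

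Hoxa2, which patterns the second pharyngeal arch, and Hoxb3 also had their lowest values in Isl1_hypo replicates 2 and 3. Hoxa2 had 19, 52, 55 and 45 counts in CTRL and 26, 2, 1 and 17 in Isl1_hypo. Isl1_hypo replicates 2 and 3 were far below all CTRL embryos, replicate 4 was just below the lowest in CPM (0.588 against 0.608), and replicate 1 was above all of them. Its log2 fold change was −1.05 (SE 0.900, edgeR adjusted p = 0.671). Hoxb3 had 13, 28, 38 and 41 counts in CTRL and 19, 4, 10 and 18 in Isl1_hypo, with a log2 fold change of −0.49 (SE 0.664, edgeR adjusted p = 0.803). In CPM its groups overlapped, with Isl1_hypo replicate 1 again highest.

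**Figure D2:**
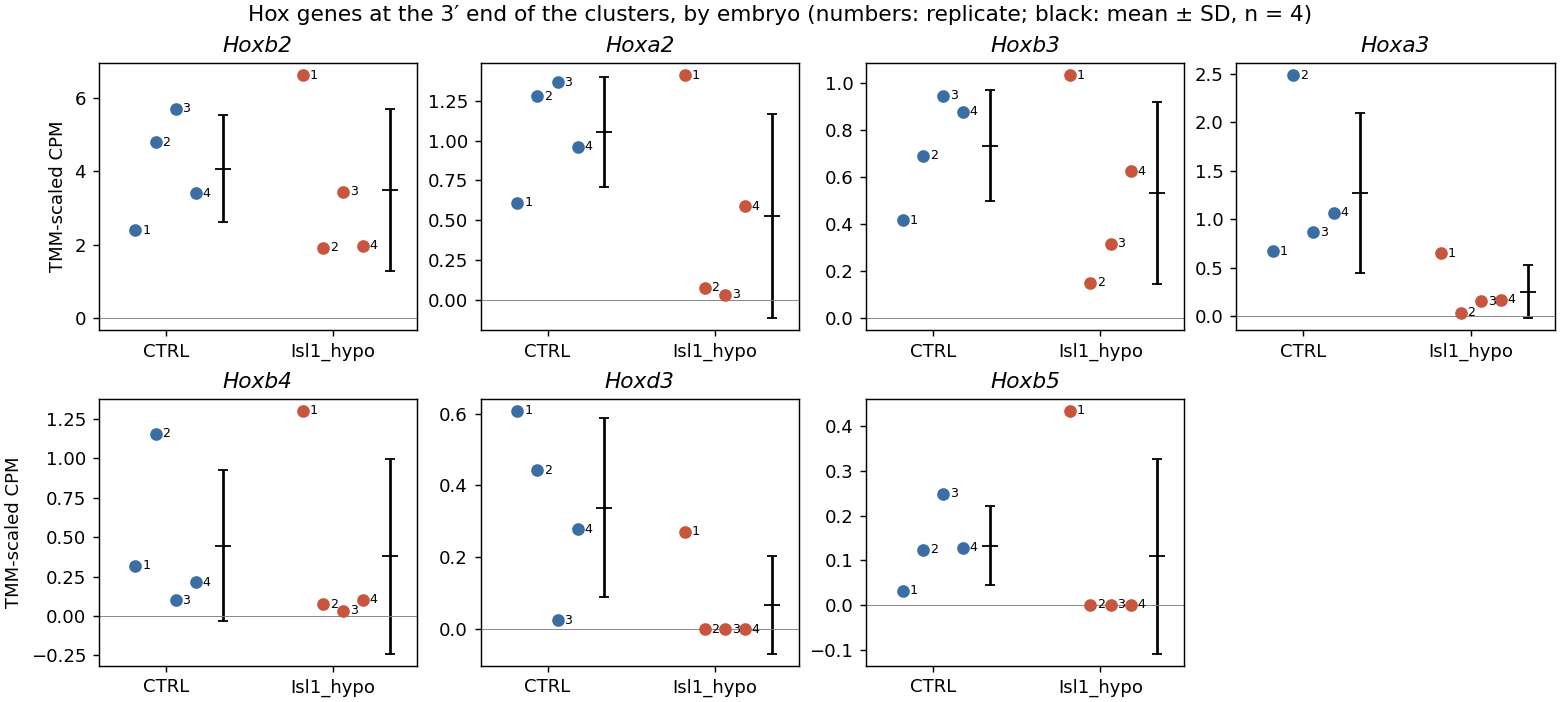
TMM-scaled CPM of 7 Hox genes in each embryo, CTRL in blue and Isl1_hypo in red, with replicate numbers beside the points and the mean ± SD (n = 4) in black. Isl1_hypo replicate 1 is the highest of all 8 embryos for Hoxb2, Hoxa2, Hoxb3, Hoxb4 and Hoxb5, and the lowest value of each panel is an Isl1_hypo embryo of replicates 2 to 4.

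Of the 39 Hox genes, 5 passed the filter on low counts and were tested in the main comparison, and the other 34 had too few counts for it. By edgeR's quasi-likelihood test none of the 5 passed an adjusted p of 0.05. Of the 13769 genes tested by edgeR 0.269% did (37 genes, 20 higher and 17 lower in Isl1_hypo). None of the 5 passed by DESeq2, which called 319 genes, or by limma-voom with sample quality weights, which called 130. By edgeR Hoxa3 was the only one of the 5 with an unadjusted p under 0.05, against 11.9% of all genes. It was also the only one without overlap between the groups, against 8.5% of all genes. The median log2 fold change of the 5 was −0.49, against 0.0057 over all genes tested.

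Without the filter, 32 Hox genes with at least 1 count were tested among 17117 genes. None passed the adjusted threshold, and 5 had an unadjusted p under 0.05, against 10.9% of all genes. These were Hoxa3, with a fold change below 0, and Hoxa10, Hoxb6, Hoxc5 and Hoxc8, whose fold changes were above 0 with most of their counts in Isl1_hypo replicate 1. The median log2 fold change of the 32 was 0.045, against −0.49 for the 5 that passed the filter.

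Isl1_hypo replicate 1 was singled out for its high Hox values, so leaving it out lowers the Hox fold changes by construction, and the values without it are a description. The log2 fold change of Hoxa3 was then −3.33 (SE 0.851, unadjusted p = 0.00258 and adjusted p = 0.160 by edgeR). That of Hoxa2 was −2.17 (SE 0.943, unadjusted p = 0.0423 and adjusted p = 0.348 by edgeR). Hoxb3 was at −1.01 and Hoxb2 at −0.74, so the median moved from −0.49 to −1.01. No Hox gene passed the adjusted threshold in that fit, against 0.194% of 13939 genes, and 2 of the 5 had an unadjusted p under 0.05, against 13.8%. Without CTRL replicate 2, the embryo with most Hoxa3 counts, the log2 fold change of Hoxa3 was −1.82 and 0 Hox genes had an unadjusted p under 0.05 by edgeR.

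**Figure D3:**
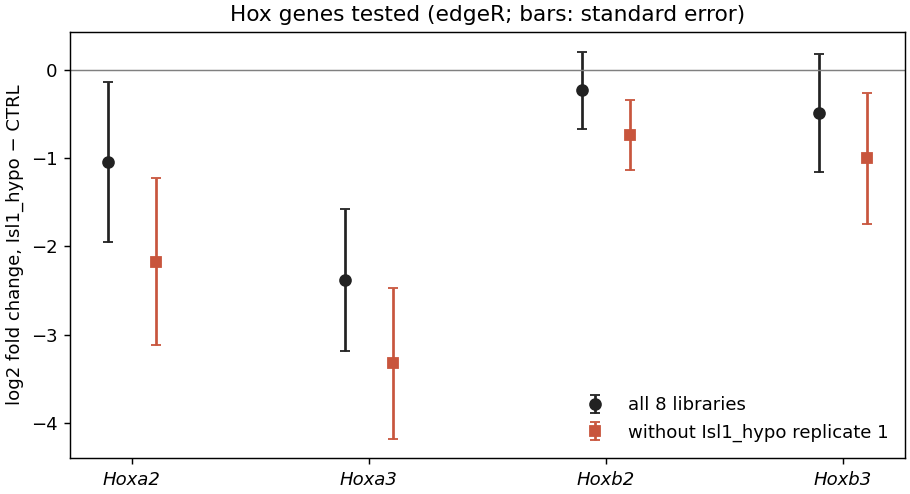
Log2 fold change of Isl1_hypo against CTRL for 4 of the Hox genes tested, with bars for the standard error, for all 8 libraries (black) and without Isl1_hypo replicate 1 (red). Each of the 4 lies lower without that library, and Hoxa3 is lowest in both fits.

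Among the members too low for the test, Hoxd3, Hoxb5 and Hoxb4 had their few counts mainly in CTRL or in Isl1_hypo replicate 1. Hoxd3, the HoxD gene of paralogue group 3, had 19, 18, 1 and 13 counts in CTRL and 5, 0, 0 and 0 in Isl1_hypo. Hoxb5 had 1, 5, 10 and 6 counts in CTRL and 8, 0, 0 and 0 in Isl1_hypo. Hoxb4, the most abundant of group 4 in CTRL, had 10, 47, 4 and 10 counts there and 24, 2, 1 and 3 in Isl1_hypo.

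For all 3 genes Isl1_hypo replicates 2 to 4 held fewer counts than every CTRL embryo, but the lowest CTRL counts were 1, 1 and 4. In CPM, Hoxb4 in Isl1_hypo replicate 4 (0.104) was above CTRL replicate 3 (0.0993). Hoxb1, of the posterior second heart field, had 0, 0, 7 and 1 counts in CTRL and 2, 0, 2 and 0 in Isl1_hypo. Hoxd1 had 0, 1, 0 and 7 in CTRL and 0 in all Isl1_hypo embryos. Depth cannot show a difference for either gene.

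Isl1_hypo replicate 1 held Hox genes of groups 4 to 8 that the other 7 embryos nearly lacked. It had 14 members with at least 10 counts, against 6 or 7 in the CTRL embryos and 2, 3 and 4 in the other Isl1_hypo embryos. It was also the shallowest library, and with the others thinned to its total count the CTRL embryos had 5 or 6 such members and the other Isl1_hypo embryos 2 each.

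The members with over 80% of their counts in that library were Hoxb6, Hoxb7, Hoxc4, Hoxc5, Hoxc6 and Hoxc8, genes that pattern the neck and trunk of the body axis. Hoxc5 had 40 counts (2.17 CPM) there and 0 or 1 in each other library. Hoxc4 had 39 (2.12 CPM) there, 4 in CTRL replicate 1 and 0 or 1 elsewhere. Hoxb7 had 32 (1.74 CPM) there, 2 in CTRL replicate 1 and 0 in the other 6.

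Hoxb6 had 29 counts (1.57 CPM) in Isl1_hypo replicate 1, 1 in CTRL replicate 3 and 0 in the other 6 libraries. Hoxc8 had 21 (1.14 CPM) there and 2 in Isl1_hypo replicate 4, and Hoxc6 had 13 (0.706 CPM) there and 1 in CTRL replicate 3. Hoxd8 (22 counts, against 5 in CTRL replicate 4 and 1 in CTRL replicate 1) and Hoxa10 (11, against 0 in all CTRL) were also highest there. None of these genes could be tested with the filter, and with 1 embryo no group difference can be read from them.

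Over the whole table, 35 of 15202 genes with at least 10 counts in some library (0.23%) had over 80% of their counts in Isl1_hypo replicate 1, and these 35 include 6 of the 16 Hox genes that reached 10 counts. In each of the other 7 libraries the share was 0.0658% to 0.335% of all genes, and no Hox gene was among them.

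Summed over groups 4 to 8, the Hox level was 12.6 CPM in Isl1_hypo replicate 1, with an exact 95% binomial interval of 11 to 14.3 CPM on unscaled totals. The CTRL embryos were at 0.80, 1.38, 0.422 and 0.449 CPM, and Isl1_hypo replicates 2 to 4 at 0.112, 0.126 and 0.277 CPM. Groups 1 to 3 summed to 6.49, 13.4, 12.6 and 10.3 CPM in CTRL. In Isl1_hypo they summed to 14.7, 4.20, 5.31 and 5.22 CPM, so replicates 2 to 4 were below every CTRL embryo and replicate 1 above them. In Isl1_hypo replicate 1 groups 1 to 3 made up 52.1% of the Hox CPM, against 88.8% to 96.6% in replicates 2 to 4.

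**Figure D4:**
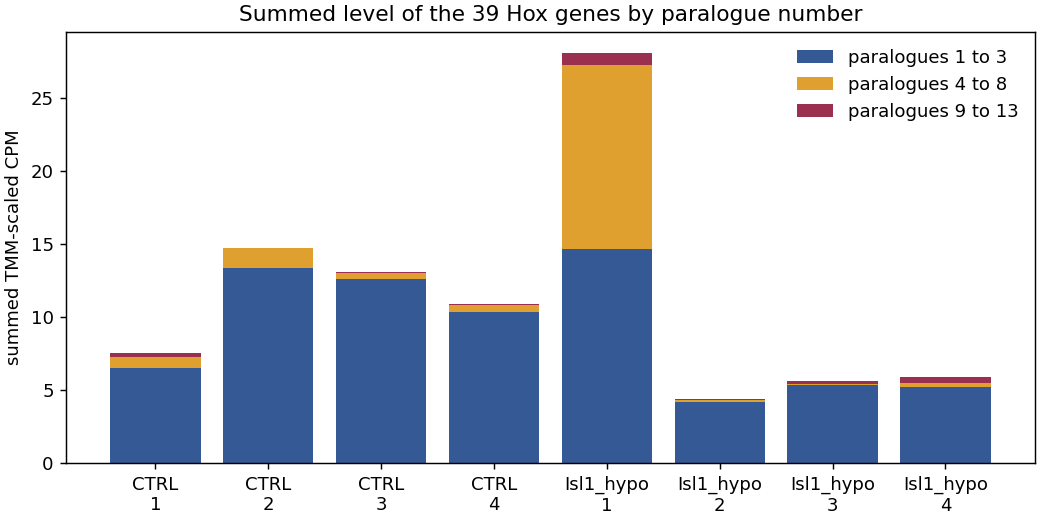
Summed TMM-scaled CPM of the 39 Hox genes in each library, stacked by paralogue number. Isl1_hypo replicate 1 reaches 28.1 CPM, of which 12.6 are from paralogues 4 to 8, whereas the other Isl1_hypo libraries reach 4.35 to 5.88 and the CTRL libraries 7.52 to 14.8.

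By cluster, the ratio of the group means of summed CPM gave log2 values of −0.69 for HoxA, −0.0028 for HoxB, 4.38 for HoxC and −0.089 for HoxD. The values for HoxB, HoxC and HoxD rest on Isl1_hypo replicate 1. Without it they were −1.37 for HoxA, −0.87 for HoxB and 0.86 for HoxC. HoxD then held 1 count in 3 Isl1_hypo embryos and 76 counts in 4 CTRL embryos, a ratio of rates of 0.0232 (95% counting interval 0.00058 to 0.133). That interval leaves out the spread between embryos, which was 4 to 28 HoxD counts per CTRL library. The library left out, chosen for its high Hox values, held 34 HoxD counts. The cluster values are descriptions with no test and give no group difference.

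Epithelial genes were high in the same library. Of the 8 markers listed for pharyngeal and foregut epithelium, Cdh1 (E-cadherin), Cldn6, Epcam, Esrp1 and Foxa2 were highest in it. Cdh1 was at 15.3 CPM there and at 0 to 0.311 in the other 7 libraries. Cldn6 was at 38.4 CPM there and at most 0.199 elsewhere, and Epcam was at 9.82 against at most 1.87. Foxa2 had 5 counts (0.271 CPM) there, 1 in CTRL replicate 4 and 0 elsewhere. The summed level of the 8 markers was 79.7 CPM in it, 7.31 to 11.6 CPM in CTRL and 5.66 to 8.58 CPM in the other Isl1_hypo embryos.

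Shh was at 0 in all 8 libraries and Nkx2-1 was at most 0.0745 CPM. Sox17, which is also expressed in endothelium, was at 9.88 CPM in that library, within its CTRL range of 6.13 to 11. The other Isl1_hypo embryos had 5.06 to 6.23 CPM of Sox17. Neural tube markers in Isl1_hypo replicate 1 (41.9 CPM) were within the CTRL range of 36.8 to 55.4 but above the other Isl1_hypo embryos (27.1 to 37.9). Sox1 was at 0 in all Isl1_hypo embryos. Markers of somite and body wall mesoderm summed to 38.8 CPM in Isl1_hypo replicate 1. They summed to 37.2 to 85.1 CPM in CTRL and 29.5 to 36.0 in the other Isl1_hypo embryos. Osr1, a marker of the posterior second heart field, was at 6.57 CPM in Isl1_hypo replicate 1, 0.112 to 0.790 in the other Isl1_hypo embryos and 0.894 to 3.20 in CTRL. Foxf1 and Shox2 of the same list, and Tfap2a and Tfap2b of the neural crest list, were also highest in that library, at 0.543 to 2.50 CPM. Other members were not, with Hcn4 at 4.88 CPM there against 6.75 to 10.4 in CTRL, Sox10 at 0.0543 against 0.192 to 0.288 and Foxd3 at 0. The sums of both lists there, 116 and 139 CPM, were within the CTRL ranges of 78.1 to 116 and 115 to 147. The part of these cell types in the Hox values was not tested.

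**Figure D5:**
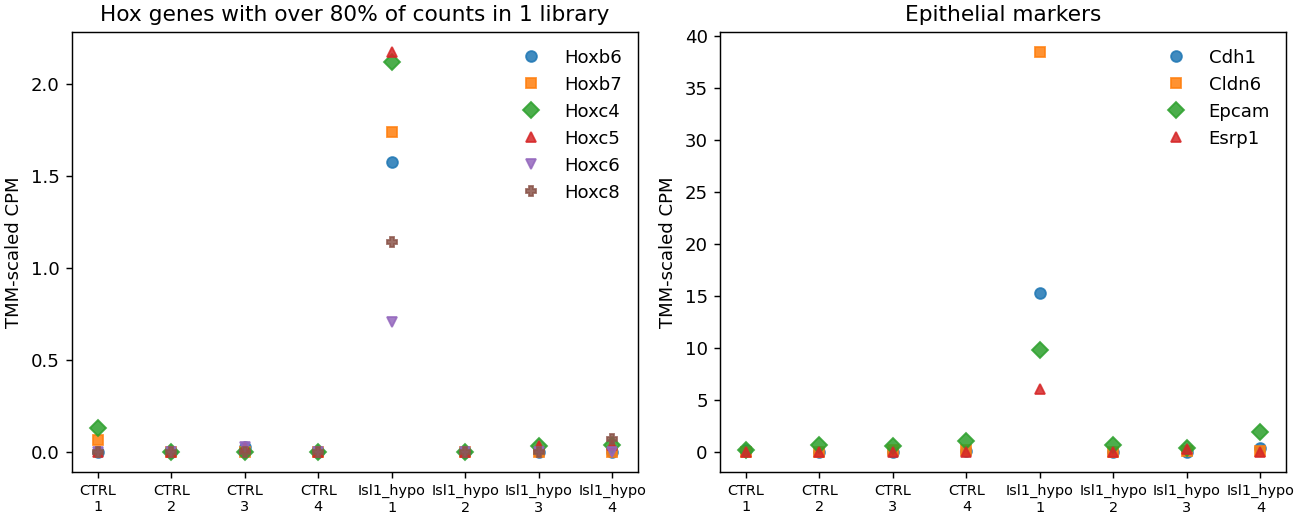
TMM-scaled CPM in each library of the 6 Hox genes with over 80% of their counts in 1 library (left) and of 4 of the 8 listed epithelial markers (right). Both sets are highest in Isl1_hypo replicate 1 (Hoxc5 at 2.17 and Cldn6 at 38.4 CPM). In the other libraries they are near 0, except Epcam, which reaches 1.87 CPM in Isl1_hypo replicate 4. Of the markers not plotted, Foxa2 was highest in Isl1_hypo replicate 1, and Shh, Nkx2-1 and Sox17 were not.

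None of the listed genes that work with or upstream of Hox genes passed the adjusted threshold. Of the 9 TALE homeodomain cofactors, which bind DNA together with Hox proteins, all 9 were tested. The summed level was 463 to 514 CPM in CTRL and 464 to 502 in Isl1_hypo. Meis3 (log2 fold change −0.39, edgeR adjusted p = 0.282) and Pbx3 (−0.41, adjusted p = 0.351) had an unadjusted p under 0.05, 2 of 9 against 11.9% of all genes. The median of the 9 was −0.10.

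Of 18 genes for retinoic acid synthesis, breakdown, binding and reception, 17 were tested and 5 had an unadjusted p under 0.05 (11.9% of all genes did), of which 2 were above 0 and 3 below. Crabp1, which encodes a cellular retinoic acid binding protein, was at 48.5, 52.0, 44.0 and 46.4 CPM in CTRL and 30.9, 16.8, 9.92 and 18.5 CPM in Isl1_hypo. Its groups did not overlap, and its log2 fold change was −1.33 (SE 0.268, edgeR adjusted p = 0.0688). Crabp2 was at −0.93 (edgeR adjusted p = 0.313). The median of the 17 genes was −0.15.

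Of 9 other upstream regulators, 5 were tested and 0 had an unadjusted p under 0.05, with Tbx1 at a log2 fold change of −1.06 (edgeR adjusted p = 0.677) and Gata4 at −0.20 (adjusted p = 0.784). Of 22 Polycomb and trithorax genes, which keep Hox genes silent or active, 5 had an unadjusted p under 0.05 (11.9% of all genes did), 2 above 0 and 3 below, led by Kmt2a (−0.45, edgeR adjusted p = 0.288) and Jarid2 (−0.32, adjusted p = 0.339). Their median was −0.14.

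Of the 22 tested genes that lie beside the Hox clusters, 0 passed the adjusted threshold by edgeR (0.269% of all genes did) and 5 had an unadjusted p under 0.05 (11.9% of all genes), 4 above 0 and 1 below. Snx10, beside HoxA, was at 5.04 to 6.62 CPM in CTRL and at 19.6, 21.2, 5.18 and 19.1 CPM in Isl1_hypo, with a log2 fold change of 1.49 (SE 0.356, edgeR adjusted p = 0.143). Its groups overlapped through Isl1_hypo replicate 3. Nfe2, an erythroid gene near HoxC, was at 1.21 (edgeR adjusted p = 0.283).

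The levels of other cells in the dissected piece also differed between embryos. Epicardial markers (Wt1, Tcf21, Upk3b, Upk1b and Aldh1a2) summed to 49.1 to 310 CPM in CTRL and to 369 to 663 in Isl1_hypo, and 4 of the 5 were higher at an unadjusted p under 0.05 (11.9% of all genes had one in either direction) with 0 past the adjusted threshold by edgeR. CTRL replicate 1, the lowest in these markers, was also the lowest CTRL embryo for Hoxa2, Hoxa3, Hoxb2 and Hoxb3. It was the highest CTRL embryo for Hoxd3 (0.608 CPM) and for the HoxC and HoxD sums (0.224 and 0.896 CPM). Isl1_hypo replicates 2 to 4, at 369 to 663 CPM of epicardial markers, had the lowest sums of groups 1 to 3 (4.20 to 5.31 CPM). Markers of the posterior second heart field and sinus venosus summed to 78.1 to 116 CPM in CTRL and 112 to 128 in Isl1_hypo. Neural crest markers summed to 115 to 147 CPM in CTRL and 133 to 211 in Isl1_hypo, nearly all of it Ednrb. Haematopoietic markers summed to 265 to 351 and 219 to 282 CPM. Markers of somite and body wall mesoderm summed to 37.2 to 85.1 CPM in CTRL and 29.5 to 38.8 in Isl1_hypo, with Isl1_hypo replicates 2 to 4 below every CTRL embryo. The 2 tested, Meox1 (log2 fold change −0.79, edgeR adjusted p = 0.230) and Tbx4 (−1.92, edgeR adjusted p = 0.287), were lower at an unadjusted p under 0.05. The part of these cells in the Hox values was not tested.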

How the data were processed

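RNA was sequenced on the BGISEQ-500 from 4 CTRL and 4 Isl1_hypo embryos, each a single embryo. STAR was used by the authors to align reads to mm9, and HOMER to count exon reads per RefSeq transcript on both strands together, so reads of overlapping and antisense genes cannot be told apart. The deposited counts are raw whole numbers. The authors derived the deposited RPKM values from them with edgeR, and the deposited transcript length, another column, is in bases. The table also holds columns of the authors' own DESeq2 comparison (mean level, fold change, its standard error, test statistic and p-values), which were not used.

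The transcript with the highest mean count was kept per symbol, and 6 Hox genes had more than 1. Genes were filtered with filterByExpr, scaled by TMM and tested with edgeR 4.0.16 (glmQLFit and glmQLFTest) in R 4.3.3, without covariates. Benjamini-Hochberg adjustment covered every gene in the fit, and the threshold was 0.05. The standard error was the fold change divided by the square root of the F statistic. Log2 CPM had a prior count of 2. A gene counted as detected in a library at 10 counts. Binomial intervals are exact at 95% and, like floors of 3 counts, cover counting error only. The scripts were tested on simulated counts. Positions are from the GENCODE annotation of mm9 for all 39 genes, and figures were drawn with matplotlib.

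Library columns were matched to samples by their group prefix and replicate number. Isl1 comes first among the genes named. Every Hox gene could be named, and those with a mean of at least 1 CPM, an unadjusted p under 0.05, or at least 10 counts with over 80% from 1 library are given in full. Of other lists, those past the adjusted threshold or the 2 with the lowest p are named. Other genes were named after their values were seen, and some items are not reported here. The Hox genes, the lists and the tests were chosen with earlier results of these data known. The lists were TALE cofactors, retinoic acid genes, other upstream regulators, Polycomb and trithorax genes, genes beside the clusters, and markers of neural tube, neural crest, somite and body wall, posterior second heart field, epicardium, pharyngeal and foregut epithelium, haematopoietic progenitors and cardiomyocytes. Alternatives were RLE and upper quartile factors, no filter, at least 10 counts in every library, DESeq2 1.42.0, limma-voom with sample quality weights (limma 3.58.1), the longest transcript, the replicate number as a block, thinning, other detection limits and leaving out each library.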

Additional observations from a re-analysis of the deposited data

Results flagged for a closer look

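Of 35 groups of 4 values examined for Isl1 and the Hox genes, 13 had 1 embryo far from the other 3. Chance gives about 1 in 20 (1.75 here) for groups not chosen by their values. Hoxb6, Hoxb7, Hoxc4, Hoxc5 and Hoxc6 are among the 13, and they were picked because 1 library held most of their counts. Several of the sums include them, so the chance rate is no reference for the 13. The rate also does not hold where the other 3 values are tied, as for Hoxb6, Hoxb7 and Hoxc6 at 0 counts and for the number of Hox genes in CTRL. Of the 13, 12 were Isl1_hypo replicate 1, and all of those 12 were high. Many of the 13 share genes, so they are not independent.

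In log2 CPM, Hoxb6 was at 0.71 in Isl1_hypo replicate 1 and Hoxb7 at 0.85, with the other Isl1_hypo embryos at −4.05 for both, the value of 0 counts. Hoxc4 was at 1.12 and Hoxc5 at 1.16, with the others at −4.05 to −3.40, and Hoxc6 was at −0.38. The number of Hox genes with 10 counts was 14 there, against 2 to 4 in the other Isl1_hypo embryos.

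Summed over all Hox genes, Isl1_hypo replicate 1 was at 28.1 CPM against 4.35 to 5.88 in the other 3. HoxB was at 12.9 CPM against 2.14 to 3.86, HoxC at 6.13 against 0.0375 to 0.221, and HoxD at 1.85 against 0 to 0.0316. Paralogue groups 1 to 3 were at 14.7 CPM against 4.20 to 5.31, and groups 4 to 8 at 12.6 against 0.112 to 0.277.

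CTRL replicate 3 had 6 Hox genes with 10 counts and the other CTRL embryos 7 each.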

How the results depend on the processing

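No Hox gene passed the adjusted threshold under any alternative run, and the fold changes of Hoxa2, Hoxa3, Hoxb2 and Hoxb3 were below 0 wherever they were fitted. The number of genes called over the table was 319 with DESeq2 and 130 with limma-voom and sample quality weights, against 37, and the cause was not tested. Without the filter 32 Hox genes were tested, of which 5 had an unadjusted p under 0.05. Their median log2 fold change was 0.045, against −0.49 with the filter. With 10 counts required in every library 2 Hox genes were left and 0 had an unadjusted p under 0.05, and with limma-voom 2 did. At least 1 count in every library held for 8 Hox genes in CTRL and 6 in Isl1_hypo. At least 10 counts in 1 or more libraries held for 8 in CTRL and 14 in Isl1_hypo.

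Leaving out 1 library gave 4 genes called without CTRL replicate 3 and 48 without Isl1_hypo replicate 3. Hox genes called were 0 each time by edgeR, those with an unadjusted p under 0.05 were 0 to 2, those passing the filter 5 to 6, and their median log2 fold change −1.01 to −0.24. Detected Hox genes were 5 to 7 in CTRL and 2 to 3 in Isl1_hypo. The log2 ratio of the cluster sums was −1.37 to −0.44 for HoxA, −0.87 to 0.26 for HoxB, 0.86 to 5.73 for HoxC and −5.57 to 0.35 for HoxD. The log2 fold change of Hoxa3 was −3.33 to −1.82 (adjusted p = 0.160 to 0.561 by edgeR).

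The labels do not say whether replicate numbers pair the embryos. Same-numbered embryos correlated at −0.042 to 0.045 in their deviations from the group means. Embryos with different numbers were not compared, so these values cannot decide the question. With the replicate number as a block 0 genes were called by edgeR (1582 had an unadjusted p under 0.05), and Isl1 was at −2.29 (adjusted p = 0.0722). Of the 39 Hox genes, 34 had too few counts for the filter, and their values rest on few reads.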

Other observations

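Other genes with over 80% of their counts in Isl1_hypo replicate 1 were mostly epithelial ones that are in no list of the report, and they were chosen after their values were seen. Gabrp had 1186 counts there and at most 23 in any other library. Tgm1, a transglutaminase of stratified epithelium, had 111 against at most 19, and Rab25, a small GTPase of epithelial cells, had 70 against 0. Their part in the Hox values was not tested.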
